A study of Drosophila melanogaster with 4 samples.

Results

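Genes that make, move, break down or sense the transmitters GABA and glutamate were followed in the heads of flies that had eaten ethosuximide, a drug against absence seizures that acts on T-type calcium channels. The 10 genes were taken by name, whatever their values: Gad1, Gabat, Gat and Rdl on the GABA side, and Gs1, Gs2, Gdh, Eaat1, Eaat2 and GluClalpha on the glutamate side. Probes annotated to 1 of these genes were found for 8 of them, as 9 of the 13824 cDNA clones on the array. A value on at least 1 array was held by 7 clones of 6 genes, among 6347 such clones on the whole array. Gat and Eaat2 each had 1 clone with no value on any array, and for Eaat1 and Rdl no probe was named in the annotation used here. Of the 7 clones, 5 had values on at least 3 arrays and could be tested, among 980 such clones on the whole array.

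Unmated Oregon-R wild-type males, aged 10 to 11 days and kept at 30 flies per vial, were held for 3 days on food with 3.48 mg/ml ethosuximide or on normal food. Each of 4 spotted cDNA arrays carried cRNA of drug-fed heads in 1 dye and cRNA of heads from normal food in the other, each from its own pool, so each array was 1 replicate of the comparison. The drug sample carried Cy5 on arrays 1 and 2 and Cy3 on arrays 3 and 4. All flies were male and of 1 strain, whole heads were used, and in such bulk samples fewer cells of a type and less RNA per cell cannot be told apart.

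GABA is made from glutamate by glutamate decarboxylase, which Gad1 encodes, and is cleared from synapses by the transporter Gat. GABA transaminase, the product of Gabat, breaks it down and returns glutamate. Glutamate in turn is cleared largely by glia through Eaat1, joined to ammonia by the glutamine synthetases Gs1 (mitochondrial) and Gs2 (cytosolic), or deaminated by the mitochondrial glutamate dehydrogenase Gdh. In flies, Rdl is a GABA-gated chloride channel and GluClalpha a glutamate-gated chloride channel, so both transmitters can inhibit neurons.

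The deposited values are ratios between the channels of an array and hold no level for either food. They were taken as log2 ratios. They are likely Cy5 over Cy3, since the submitters name their spot quality measure 635/532, the scanner's Cy5 channel over its Cy3 channel, and list Cy5 as channel 1. On that reading the sign of arrays 3 and 4 was turned to give ethosuximide over normal food. The numerator is not stated, nor whether the dye-swap columns were turned before deposit, so the direction of every ratio is unsettled. Centred means or medians of these genes and the lists are given with arrays 3 and 4 turned and with no array turned. If the ratios were Cy3 over Cy5, every sign of the turned reading would change. Values with no array turned take ethosuximide as the numerator of every column, and their signs would change if it was normal food. The columns were also not centred at 0. Their medians over the 980 tested clones were 0.74, 0.16, 0.24 and 0.63 on arrays 1 to 4 as deposited. Each array was therefore centred on this median, and a centred ratio says where a clone stood relative to the typical tested clone of its array. On array 2 the median over all spots with a value was 0.01, so the choice of clones shifts the values there. Values were held by 5095, 3169, 1101 and 812 clones on arrays 1 to 4, and with so few arrays each mean below has limited precision.

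**Figure D1:**
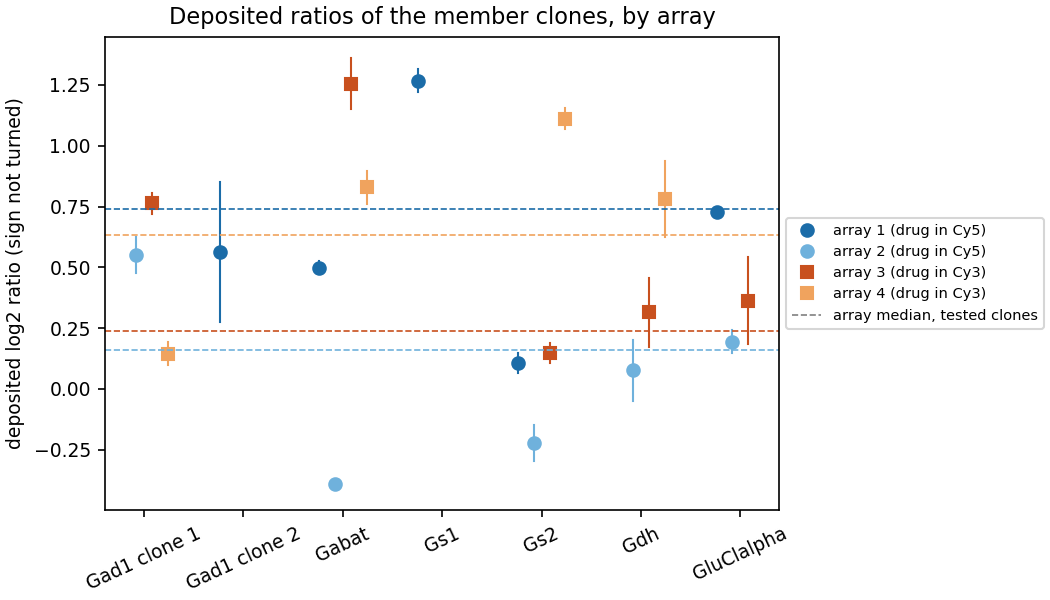
Deposited log2 ratio (y axis, sign as deposited) of each member clone (x axis) on each array that measured it. A point is the mean of the duplicate spots, the vertical line joins both spots, and the dashed lines are the medians of the tested clones on each array. Gabat ran from -0.39 on array 2 to 1.26 on array 3.

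None of the 5 tested clones of these genes passed the test for a difference between drug and normal food. In limma's test of the centred ratios against 0, with Benjamini-Hochberg adjustment over all 980 clones and a threshold of 0.05, the count was 0 of 5, while 14 of 980 clones passed (1.43%). With arrays 3 and 4 turned, Gabat and Gs2 stood furthest from 0, both below it, and were the 2 of 5 with an unadjusted p under 0.05, which 119 of 980 clones had (12.1%). Gdh and GluClalpha stayed close to the array medians, and Gad1 lay on both sides of them. Every array that measured it gave the same sign for 2 of the 5 clones, Gabat and Gdh, as for 306 of the 980 (31.2%). The median of the 5 means was -0.10, against 0.0037 over all 980 clones. With no array turned, 0 of 980 clones passed in limma's test (0%), and 0 of the 5 had an unadjusted p under 0.05, beside 86 of 980 (8.78%). The 5 means then had a median of 0.05 and lay below 0 for Gs2 alone, and Gs2 at -0.16 and Gad1 clone 1 at 0.14 stood further from 0 than Gabat at 0.11. On that reading 0 of the 5 clones had the same sign on every array, beside 243 of 980 (24.8%).

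**Figure D2:**
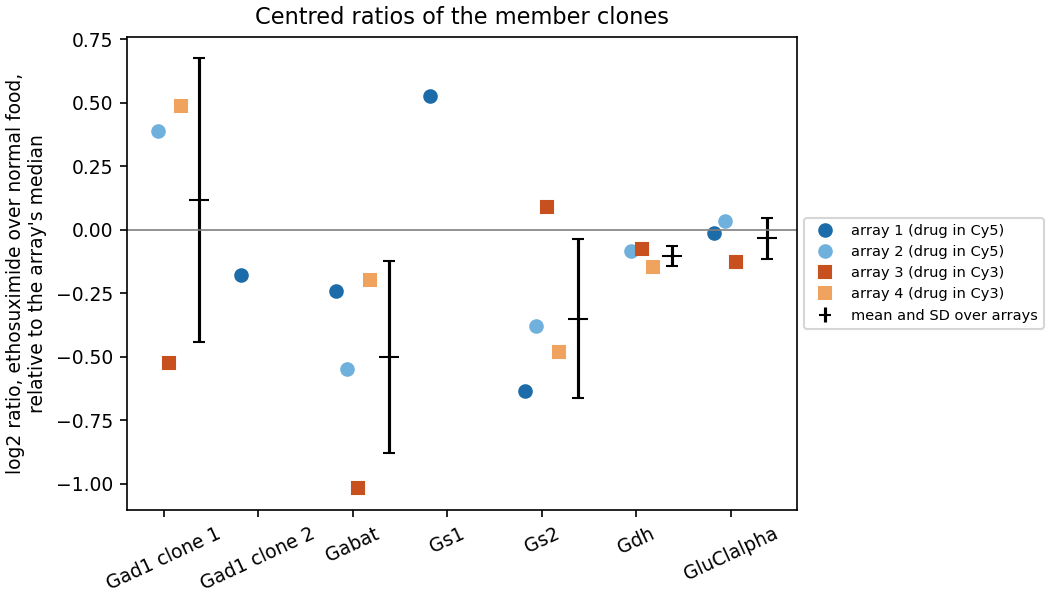
Log2 ratio of ethosuximide over normal food (y axis), relative to the median of the tested clones on each array. Values are shown with arrays 3 and 4 turned, for each member clone (x axis). Circles are arrays with the drug sample in Cy5, squares those with it in Cy3, and black bars give the mean and SD over arrays for clones on at least 3 arrays. The Gabat points lie between -1.02 and -0.20, all below 0, and the Gdh points between -0.15 and -0.08.

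Gad1, the enzyme that makes GABA, was spotted as 2 clones, and no array measured both. Clone 1 had deposited ratios of 0.55, 0.76 and 0.15 on arrays 2, 3 and 4. Centred and turned, these were 0.39, -0.52 and 0.49, so arrays 2 and 4 placed it above the typical tested clone and array 3 below. Its mean was 0.12 ± 0.56 (SD, n = 3), with a 95% interval of -0.36 to 0.60 and an adjusted p of 0.874 in limma's test. This SD exceeded that of most tested clones, at the 94th percentile of the 980. The centred values with no array turned were 0.39, 0.52 and -0.49, so neither reading gave 1 sign on all 3 arrays. The duplicate spots of clone 1 lay within 0.15 of each other on every array, a smaller gap than the spread between arrays. Clone 2 was measured on array 1 alone, at 0.56 as deposited and -0.18 centred. Its spots were 0.85 and 0.27, and their gap of 0.58 was larger than that of 81% of the duplicate pairs on that array.

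Gabat, which breaks GABA down, was measured on all 4 arrays. Its deposited ratios were 0.50, -0.39, 1.26 and 0.83 on arrays 1 to 4. Centred and turned they were -0.24, -0.55, -1.02 and -0.20, all below 0, which 40 of the 366 clones measured on every array were as well (10.9%). The mean was -0.50 ± 0.38 (SD, n = 4), or 0.706-fold, with a 95% interval of 0.554-fold to 0.900-fold. Like the other intervals given, it is for 1 clone and is not adjusted over the 980. The limma adjusted p was 0.265 (unadjusted 0.01), rank 37 of 980 by p. An exact test over the signs of the 4 values gave 0.125, two-sided, the smallest p that 4 arrays allow. Array 3 stood lowest, where 0.452% of tested clones lay at or below Gabat, and without it the mean was -0.33. The spots differed by 0.03 to 0.21 within an array.

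On the other reading, with no array turned, the centred Gabat values were -0.24, -0.55, 1.02 and 0.20, with a mean of 0.11 ± 0.68 (SD, n = 4; limma adjusted p = 0.951). The drug-in-Cy5 and drug-in-Cy3 arrays then lay on opposite sides of 0. The place of Gabat relative to the typical tested clone therefore rests on the reading of the dye-swap columns. Over the 366 clones measured on every array alone, as a separate fit, the turned mean was -0.52 and the limma adjusted p 0.0527, still short of the threshold. Across the 15 alternatives run, the limma adjusted p of Gabat ranged from 0.0527 to 0.994.

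Photoreceptor and muscle genes also had medians below 0 on the turned reading, and above 0, at 0.15 and 0.18, with no array turned. The photoreceptor list had 5 of 13 genes on at least 3 arrays, with a median of -0.29 and array medians of -0.39, -0.09, -0.55 and -0.13. Of these, chp was at -0.45, inaD at -0.35, inaC at -0.29 and trpl at -0.28, while Arr1 was above 0, at 0.26. On the muscle list 2 of 8 genes were so measured, Act88F at -0.43 and Mlc2 at -0.21. The neuronal list had 2 of 12, Sap47 at 0.17 and Rab3 at -0.11, and the fat body list 2 of 8, apolpp at 0.07 and Adh at 0.18. For gut and reproductive tissue 2 of 7 were measured, Amyrel at 0.09 and ocn at 0.44. The Amyrel mean hides opposite signs, as its centred and turned values were 0.19, -1.17 and 1.24 on arrays 1 to 3. The medians of the neuronal, fat body and gut and reproductive lists were 0.03, 0.13 and 0.26 with arrays 3 and 4 turned, and -0.05, 0.06 and -0.40 with no array turned. Of 8 glial markers 4 had a value, none on more than 2 arrays, and no clone of the defining glial gene repo was named. None of the marker genes on at least 3 arrays passed limma's test, the glial markers were not tested, and the part of cell composition in the Gabat and Gs2 values was not tested. The labels call the tissue head, and the photoreceptor genes Arr1, trpl and chp were measurable on all 4 arrays, while no clone was named for the main opsin gene ninaE or the neuronal gene elav.

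The pair of enzymes that synthesise glutamine differed in coverage. Gs2, the cytosolic form, had deposited ratios of 0.11, -0.22, 0.15 and 1.11 on arrays 1 to 4. Centred and turned they were -0.63, -0.38, 0.09 and -0.48, so it lay below 0 on 3 of 4 arrays, array 3 being the exception. The mean was -0.35 ± 0.31 (SD, n = 4), or 0.784-fold, with a 95% interval of 0.627-fold to 0.981-fold and a limma adjusted p of 0.374 (unadjusted 0.036). When no array was turned, arrays 1, 2 and 3 lay below 0, at -0.63, -0.38 and -0.09, and array 4 above, at 0.48, and the mean was -0.16 ± 0.48 (SD, n = 4; limma adjusted p = 0.891). Both readings hold the same values of arrays 1 and 2, so they are not separate checks. Of the 5 clones, Gs2 alone had a centred mean below 0 on both readings, each of which takes ethosuximide as the numerator. Its spots differed by at most 0.15.

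Gs1, the mitochondrial form, was measured on array 1 alone. Its spots were 1.31 and 1.22, which gave 1.27 as deposited and 0.53 centred. On that array 93.2% of the tested clones lay at or below it, while Gs2 stood at the 3.84th percentile. With a single array there is no replicate check of this difference between the paralogs, and whether their clones share hybridisation was not tested.

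Gdh, which links glutamate to the citrate cycle, had the lowest SD over arrays of the 5 with arrays 3 and 4 turned, and GluClalpha with no array turned. Deposited ratios were 0.08, 0.31 and 0.78 on arrays 2, 3 and 4. Centred and turned they were -0.08, -0.08 and -0.15, and the SD of 0.04 was among the lowest of the 980 clones, at the 1.53rd percentile. The mean was -0.10, with a 95% interval of 0.749-fold to 1.16-fold and a limma adjusted p of 0.824. Its duplicate spots differed by 0.25 to 0.31, more than the arrays did after averaging, so the low SD over arrays is not a measure of spot precision. Unturned, the mean was 0.05 ± 0.12 (SD, n = 3; limma adjusted p = 0.971).

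GluClalpha, the receptor among the measured genes, lay close to the array medians. Its deposited ratios of 0.73, 0.20 and 0.36 on arrays 1, 2 and 3 were -0.01, 0.04 and -0.13 after centring and turning. The mean was -0.03 ± 0.08 (SD, n = 3), with a 95% interval of 0.783-fold to 1.22-fold and a limma adjusted p of 0.945. Unturned, it was 0.05 ± 0.07 (SD, n = 3; limma adjusted p = 0.97). The interval spans changes of either sign, so the test does not show that the transcript stayed level. On array 3 the spots of this clone were 0.54 and 0.19, a gap at the 83.2nd percentile of the duplicate pairs there.

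**Figure D3:**
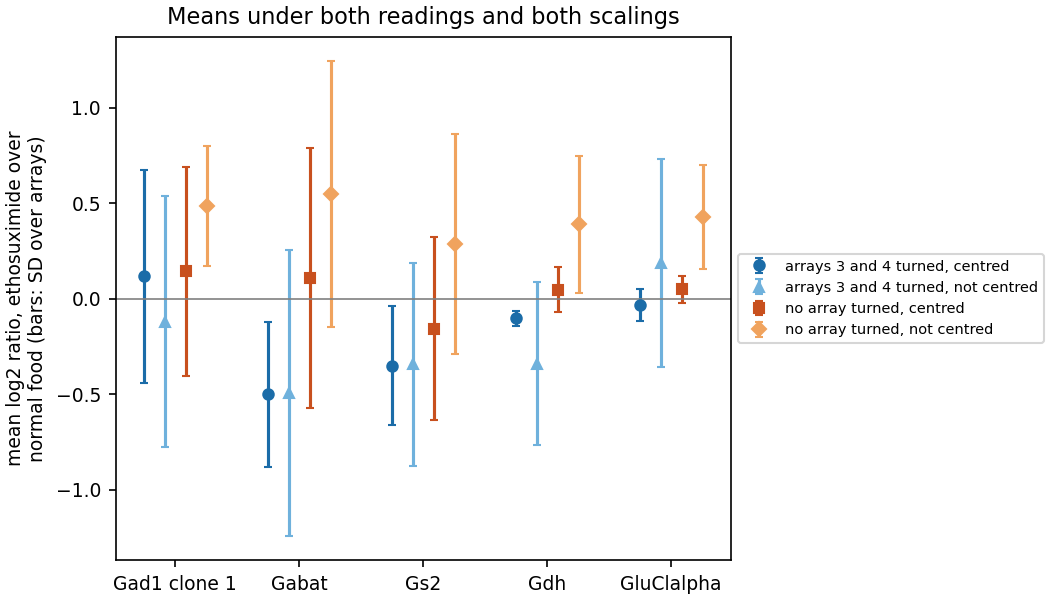
Mean log2 ratio of ethosuximide over normal food (y axis) for the 5 clones on at least 3 arrays (x axis), with SD over arrays as bars, under both readings of the dye-swap columns, centred and not centred. Gabat moves between -0.50 with arrays 3 and 4 turned and 0.11 with no array turned after centring, and Gs2 between -0.35 and -0.16.

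Without centring, the offsets of the arrays entered each mean. On the turned reading the uncentred means were -0.12 for Gad1 clone 1, -0.49 for Gabat, -0.34 for Gs2, -0.34 for Gdh and 0.19 for GluClalpha, and the limma adjusted p was 0.994 for each. The SDs then rose to between 0.43 for Gdh and 0.75 for Gabat, and 5 of 980 clones passed (0.510%). For clones on 3 arrays the uncentred mean depends on which array lacks a value, array 1 for Gad1 clone 1 and Gdh and array 4 for GluClalpha. Under the other reading and with no centring all 5 means were positive, from 0.29 for Gs2 to 0.55 for Gabat. The median over all 980 clones was then 0.40, and 32 clones passed (3.27%), none of them from these genes.

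Differences between clones on the same array are free of the array's offset, and their size does not depend on the reading. The pairs of enzymes were chosen after the values were seen and are given as a description, with no test. Gad1 makes GABA and Gabat breaks it down, while Gs2 and Gdh both use glutamate. Gabat minus Gad1 clone 1 was -0.94, -0.49 and -0.68 on arrays 2, 3 and 4 with arrays 3 and 4 turned, with a mean of -0.71 ± 0.22 (SD, n = 3). On that reading the drug-over-food ratio of Gabat was thus below that of Gad1 clone 1 on each of these arrays. This says nothing of which transcript was more abundant. Unturned, the differences were -0.94, 0.49 and 0.68, with a mean of 0.08 ± 0.89 (SD, n = 3). On array 1, where the other Gad1 clone was measured, Gabat minus Gad1 was -0.06. Gs2 minus Gdh, glutamine synthesis against glutamate deamination, was -0.30, 0.17 and -0.33 on arrays 2, 3 and 4 with arrays turned, and changed sign between arrays on both readings.

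**Figure D4:**
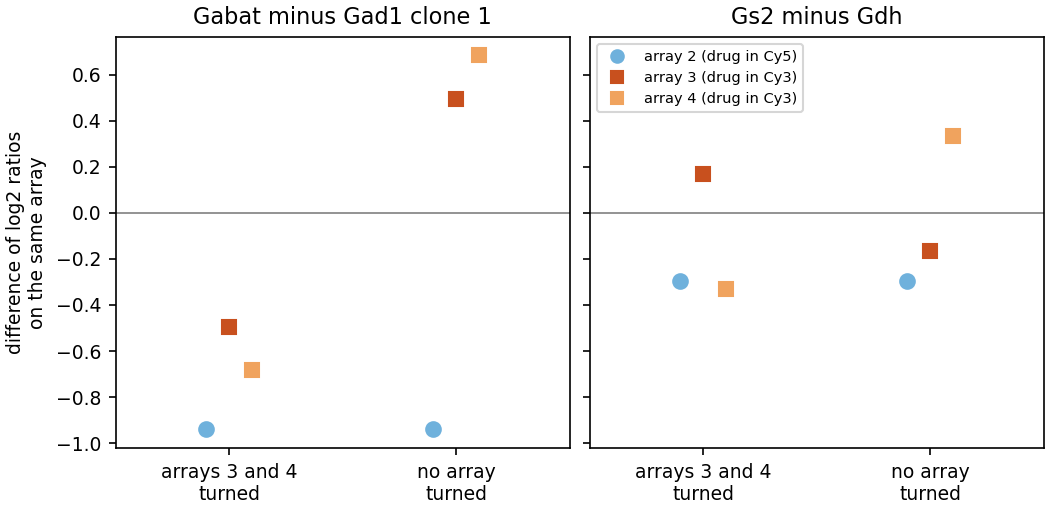
Difference of log2 ratios between the enzymes of a pair on the same array (y axis), for arrays 2, 3 and 4. The x axis gives both readings of the dye-swap columns. Gabat minus Gad1 clone 1 lies between -0.94 and -0.49 with arrays 3 and 4 turned and on both sides of 0 with no array turned, while Gs2 minus Gdh lies on both sides of 0 on both readings.

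With arrays 3 and 4 turned, no dye effect passed the test for these 5 clones, beside 2 of 980 clones (0.204%). The values were centred first, so a dye bias shared by all clones of an array could not be seen. For the clones on 3 arrays, a dye orientation rested on a single array. In limma's model with a dye term beside the drug, the dye effect was 0.20 for Gad1 clone 1, 0.11 for Gabat, -0.16 for Gs2, 0.01 for Gdh and 0.07 for GluClalpha, and the lowest adjusted p for dye among them was 0.61. The drug ratios of Gabat and Gs2 were unaltered in that model, since both orientations are equally present on 4 arrays, and their adjusted p were 0.135 and 0.198. With no array turned the dye and drug terms change places, so that the dye effects of Gabat and Gs2 would be -0.50 and -0.35.

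Of 45 further genes listed for GABA and glutamate metabolism, transport and reception, P5cs, Alat and Psat matched no single current symbol and were not looked up. Of all 45, 19 had a clone and 9 a value on at least 1 array. P5CDh1, a dehydrogenase of proline breakdown that yields glutamate, was the only one on at least 3 arrays. Its deposited ratios were 0.63, 0.41, 0.17 and 0.33 on arrays 1 to 4, and its centred ratios -0.11, 0.25, 0.07 and 0.30, with a mean of 0.13 ± 0.19 (SD, n = 4; limma adjusted p = 0.71). It lay above 0 on 3 of 4 arrays and did not pass, and with no array turned its mean was -0.06. The genes measured on fewer arrays are named here after their values were seen. Lcch3, a GABA receptor subunit, was at -0.03 and 0.16 centred on arrays 1 and 2, and Gclm, a subunit of the enzyme that uses glutamate in glutathione synthesis, at 0.08 and -0.27. On array 1 alone, centred values ran from -0.89 for the glutamate receptor gene GluRIIA to 0.73 for Grik, a kainate-type glutamate receptor gene. The succinic semialdehyde dehydrogenase gene Ssadh, which takes the product of Gabat further, had a clone but no value.

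Likeness of pattern was measured for Gabat and Gs2 as the root mean square difference of centred ratios over the 4 arrays, among 183 other clones with a single gene name on every array. This measure does not depend on the sign given to a column. The nearest to Gabat were chp at 0.143, pkm at 0.156 and CG7781 at 0.251, against a median of 0.657 over all 183. With arrays 3 and 4 turned, the photoreceptor gene chp stood at -0.39, -0.32, -0.96 and -0.13 on arrays 1 to 4, lowest on array 3 as Gabat was. With no array turned, array 3 was instead the highest for both genes. The nearest to Gs2 were CG6409 at 0.182, CG4409 at 0.22 and the odorant-binding protein gene Obp19d at 0.228, against a median of 0.545.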

How the data were processed

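Per the series' design text, the authors quantified the slides with GenePix Pro 6.0 and normalized ratios in Acuity 4.0. Their spot filter asked for a signal 3 or more times the noise, an R2 between channels no lower than 0.6, fewer than 3% of pixels saturated, and no negative flag. The design text also names a minimum raw intensity of 100 units. The deposited values were taken as log2 ratios, although the log base is not stated. The genome build is not given in the sources used here.

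Neighbouring spots were averaged as duplicates of 1 clone, since 7558 of 7558 named pairs carried the same gene. The platform annotation gave a single symbol for 15116 of 27648 spots, more than 1 for 102 and no symbol for 12430. Among single symbols 14894 matched a current RefSeq symbol through the gene number. Each array was centred on its median over clones with values on at least 3 arrays. These 980 clones were fitted against 0 with limma 3.58.1 in R 4.3.3 (lmFit, eBayes, two-sided), and the procedure was tested on simulated data. SDs are over arrays, and 95% intervals come from the fit, clone by clone, with no adjustment over the 980.

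The members, lists and centring were chosen with earlier results of these data known. All 10 genes were named, with each pathway or marker gene on at least 3 arrays and the 3 nearest patterns to each clone on 4 arrays. Alternatives covered scaling, centring set, column reading, dye term, duplicate spots, arrays required, equal spread, variance and leaving out each array. The pools of heads are per the labels separate, but what further separates the replicates is not stated.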

Additional observations from a re-analysis of the deposited data

How the results depend on the processing

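Across the 15 alternatives no tested clone of these genes passed limma's test. Over all clones 14 passed, against 5 without centring, 9 when centred on clones measured on all 4 arrays, 28 with a dye term, 0 from each clone's own spread without moderation (105 at an unadjusted p under 0.05), and 5 to 23 when each array was left out, 5 without array 1, 23 without array 2 and 7 without array 3. With no array turned 0 passed (86 at an unadjusted p under 0.05), and 32 with no centring either. The dye term, the requirement of both spots and each clone's own spread left the means of Gabat and Gs2 at -0.50 and -0.35. A sign kept in those alternatives is therefore no check of it. Gabat kept its sign in 13 of 15 alternatives and turned to 0.11 with no array turned and 0.55 with no centring either. Gs2 kept its sign in 14 of 15 and turned to 0.29 in the last of these. Gdh turned to 0.047 and 0.39 under the same alternatives, and GluClalpha to 0.049 and 0.43, and to 0.19 on the turned reading without centring. Gad1 clone 1 turned to -0.12 without centring. With each array left out, Gad1 clone 1 ranged from -0.067 to 0.44 and GluClalpha from -0.0695 to 0.011. P5CDh1, the pathway list's measured gene, turned to -0.06 with no array turned and moved to 0.39 with no centring either. For clones on 3 arrays the requirement of 4 gave no value. The cause of these changes was not tested beyond the construction of each alternative. Each array holds both samples of a replicate, so the test of its ratios against 0 is already paired by array. No further pairing was made within the 1 group of ratios. Requiring both spots altered no count.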
